A study of Homo sapiens with 32 samples.

Results

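Messenger RNA of 9 genes that describe the lineage and state of melanoma cells was followed in a melanoma line and, for contrast, in a lung cancer line: MITF, SOX10, SOX9, AXL, NGFR, RAB38, ZEB1, ZEB2 and TFAP2A. They were chosen by name, and all 9 were found by Ensembl ID among the 60728 genes of the deposited count table and passed the filter on low counts in both lines, SOX10 in A549 through 1 replicate. Each had 1 row in that table. On GRCh38, as GENCODE 29 places them, the gene bodies are MITF (chromosome 3, 69739435 to 69968337), SOX10 (chromosome 22, 37970686 to 37987422), SOX9 (chromosome 17, 72121020 to 72126420), AXL (chromosome 19, 41219203 to 41261766), NGFR (chromosome 17, 49495293 to 49515017), RAB38 (chromosome 11, 88113242 to 88175467), ZEB1 (chromosome 10, 31318495 to 31529814), ZEB2 (chromosome 2, 144364364 to 144524583) and TFAP2A (chromosome 6, 10393186 to 10419659). SK-MEL-147 is a melanoma line and A549 a lung adenocarcinoma line. Cells of each line were left untreated or given doxorubicin, palbociclib or INK128, and all were collected on day 7. Doxorubicin, which damages DNA through topoisomerase, was used at 100 nM in both lines. Palbociclib, an inhibitor of CDK4 and CDK6, was used at 1 uM in SK-MEL-147 and at 5 uM in A549. INK128, an inhibitor of the growth kinase mTOR, was used at 100 nM in SK-MEL-147 and at 200 nM in A549. The design text of the series names another melanoma line, SK-Mel-103, for INK128, whereas the label of every melanoma sample used here names SK-MEL-147, which was followed. As a measurement on this point, no protein-coding gene had at least 10 CPM (counts scaled to a common library total) in every library of one and at most 0.1 CPM in every library of the other among the INK128 and control samples of the melanoma line, nor between doxorubicin or palbociclib and control. Between the untreated lines, 51 genes did so in SK-MEL-147 and 162 in A549. No other melanoma line was measured, so how many genes would do so between melanoma lines is not known, and the measure does not settle the point. This measure was chosen after the values were seen, and if the INK128 cells were another line, drug and line cannot be told apart in the INK128 comparisons. Doxorubicin and palbociclib were removed after 72 h, whereas INK128 was added again at every medium change, every 3 days. The labels call the cells after doxorubicin or palbociclib senescent, and those under INK128 diapause-like. No genetic change or transgene was named for any group, and each line stands for its tumour type by itself. Whether the replicates were grown as separate cultures is not stated, so p-values measure only the spread between these samples, which may be technical.

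Melanocytes arise from the neural crest, and melanoma cells can move along part of that path. SOX10 and TFAP2A help to specify the lineage, and MITF then drives pigment, survival and proliferation genes. Cells with low MITF often carry more AXL, NGFR or SOX9, states linked in this tumour to tolerance of targeted drugs. ZEB2 and ZEB1, a pair of related repressors that bind E-boxes, are known to trade places as melanoma cells lose differentiation. Since all values are per gene and come from whole cultures, fewer cells in a state and less RNA per cell cannot be told apart.

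Promoter windows of 3 genes are shown because MITF, ZEB2 and AXL stand for the melanocytic, the ZEB and the drug-tolerant arms of the set. The sequences are RefSeq's on GRCh38.p14, from 250 bases before to 50 after an annotated start, and 5 of the 9 genes had at least 1 such window. Capitals mark, on either strand, the SOX core ACAANG, the ZEB-type E-box CACCTG, the MITF-type E-box CACATG, the palindromic E-box CACGTG, the AP-2 palindrome GCCNNNGGC and the cyclic AMP element TGACGTCA.
MITF, the start furthest downstream, chr3:69936342-69936641, plus strand: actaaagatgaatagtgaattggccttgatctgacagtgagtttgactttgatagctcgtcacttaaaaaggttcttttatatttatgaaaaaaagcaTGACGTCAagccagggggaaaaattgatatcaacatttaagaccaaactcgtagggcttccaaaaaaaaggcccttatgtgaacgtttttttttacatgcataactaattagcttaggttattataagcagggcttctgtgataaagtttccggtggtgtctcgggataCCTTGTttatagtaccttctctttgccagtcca
ZEB2, chr2:144520070-144520369, minus strand: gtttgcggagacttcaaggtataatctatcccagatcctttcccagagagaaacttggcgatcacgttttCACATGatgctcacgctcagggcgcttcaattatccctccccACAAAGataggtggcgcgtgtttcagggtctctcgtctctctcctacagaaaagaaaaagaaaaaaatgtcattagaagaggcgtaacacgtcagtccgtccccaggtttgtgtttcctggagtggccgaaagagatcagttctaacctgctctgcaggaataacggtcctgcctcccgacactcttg
AXL, the start furthest upstream, chr19:41218973-41219272, plus strand: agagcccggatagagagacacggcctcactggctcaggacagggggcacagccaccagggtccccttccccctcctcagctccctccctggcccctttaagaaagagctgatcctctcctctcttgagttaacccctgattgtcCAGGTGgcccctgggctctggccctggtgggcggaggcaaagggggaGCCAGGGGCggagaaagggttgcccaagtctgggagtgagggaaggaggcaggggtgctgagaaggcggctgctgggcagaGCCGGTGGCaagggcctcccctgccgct
The MITF window, which lies at the start used by melanocytes, held 1 SOX core and 1 cyclic AMP element. The ZEB2 window held 1 SOX core and 1 MITF-type E-box. The AXL window held 1 ZEB-type E-box and 2 AP-2 palindromes. Among all 35116 windows of this length, 35.5% held the SOX core, 1.85% the cyclic AMP element, 11.1% the MITF-type, 20.6% the ZEB-type and 7.26% the palindromic E-box, and 23.2% the AP-2 palindrome. A match is a description of letters, not a binding site. The counts are sums over a gene, so they do not tell which of the 3 annotated MITF starts was used.

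Levels are given as CPM, the count of a gene scaled to a common library total, computed within a line, and where genes are compared with each other as CPM per kb of the longest coding transcript. The 16 SK-MEL-147 libraries held 17929732 to 32407057 counts, in 4 replicates per group. The 16 A549 libraries held 28150560 to 33331334 counts. They gave 3 replicates per group, since the libraries titled 2 and 2-2 carry the same replicate number and were summed. Whether they are independent of each other and of the others is in doubt. By library size alone the A549 control libraries 2 and 2-2 had 27.5 and 15.7 CPM of MITF and 362 and 196 of AXL. For SOX9 they had 36.1 and 36.2 CPM. The SDs and replicate values given for A549 use the sum and leave out this spread. A gene was called higher or lower where the Benjamini-Hochberg adjusted p of edgeR's 2-sided quasi-likelihood test, over all genes tested, was under 0.05.

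The A549 libraries of replicate 1 stood apart. Outside the set, 11 protein-coding genes had at least 30 CPM in every SK-MEL-147 library and at most 0.1 CPM in every A549 library of replicates 2 and 3, a choice made after the values were seen. Their sum in replicate 1 of A549 was 2.95 CPM in the control, 48.2 with doxorubicin, 45.9 with palbociclib and 43.8 with INK128, against at most 0.302 CPM in any other A549 library. The median of these genes in replicate 1 was 0.176%, 2.97%, 2.43% and 3.55% of their level in SK-MEL-147 under the same treatment. SOX10 followed them, with 0.663, 6.54, 5.53 and 17.2 CPM by library size alone, and none of the other 12 A549 libraries held more than 2 counts of it. Its levels in replicate 1 were 0.213%, 2.02%, 2.54% and 2.85% of those in SK-MEL-147. NGFR in replicate 1 had 13 counts in the control and 180, 77 and 158 with the drugs, which were 0.149%, 0.577%, 0.451% and 1.56% of the SK-MEL-147 levels, below the shares of the 11 genes. The other A549 libraries each had 4 to 30 NGFR counts, so that in the control NGFR did not lie mainly in replicate 1. No response of either gene in A549 is claimed, and their fitted values there are given only to show how far they turn on replicate 1. In the other direction, 39 genes of all A549 libraries that untreated SK-MEL-147 lacked summed to at most 5.22 CPM in any SK-MEL-147 library.

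**Figure D1:**
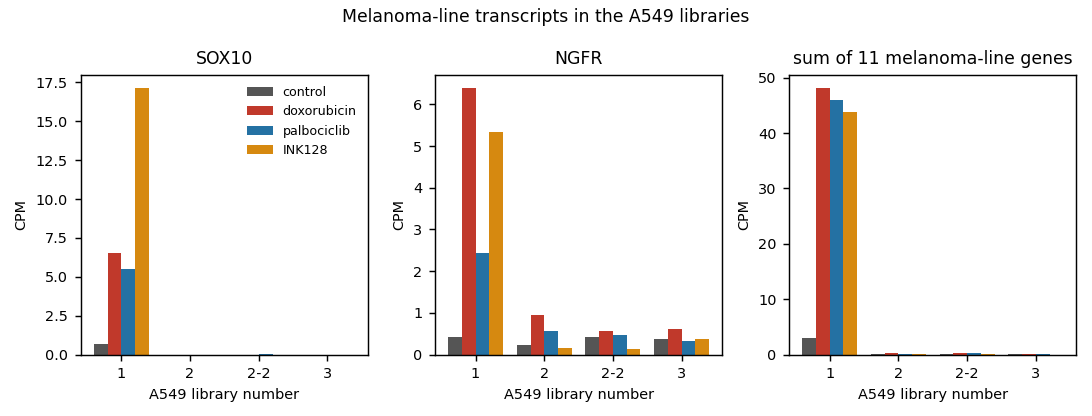
CPM by library size alone (vertical axis, from 0) of SOX10, of NGFR and of the 11 genes of the melanoma line, in each A549 library (horizontal axis, library number), with bars coloured by treatment. Replicate 1 reached 17.2 CPM for SOX10 and 48.2 CPM for the 11 genes, whereas the sums elsewhere were at most 0.302 CPM.

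Untreated SK-MEL-147 cells had high AXL, SOX10 and NGFR and little MITF. Per kb, the mean levels were 199 CPM for AXL, 109 for SOX10 and 85.4 for NGFR. RAB38 (15.4 CPM per kb), ZEB1 (13.1), ZEB2 (8.79) and SOX9 (7.56) were lower, and TFAP2A (4.04) and MITF (2.50) lowest. Neighbours in this order whose replicates overlap are SOX10 and NGFR, RAB38 and ZEB1, and ZEB2 and SOX9; the other neighbours do not overlap. Pigment genes were all but silent: MLANA, a melanocyte antigen, had 0 counts in the control group, TYR (tyrosinase) 2 counts, and 13 of 16 pigment genes were below 1 CPM on average. Markers of other cell types were read beside the members. In SK-MEL-147 the 10 leukocyte markers summed to 0.882 to 2.74 CPM over all 16 libraries. The 13 epithelial markers summed to 151 to 211 CPM in SK-MEL-147 and to 4003 to 12970 CPM in A549. Keratins moved within that sum in SK-MEL-147: KRT8 rose from 6.99 CPM to 18.6, 21.4 and 30.7 with doxorubicin, palbociclib and INK128, and KRT7 from 3.76 to 8.28, 9.59 and 10.5, while KRT18 fell from 86.7 CPM to 44.7 with doxorubicin and 62.4 with INK128. The 10 fibroblast markers summed to 16.8 to 24.6 CPM in the control, 62.9 to 134 with doxorubicin, 93.5 to 169 with palbociclib and 7.41 to 24.9 with INK128. Of the 10 fibroblast markers 2 were tested, COL1A1 and LUM, which both rose with doxorubicin and palbociclib. LUM went from 19.2 CPM to 78.7 and 103, and COL1A1 from 1.04 to 23.4 and 29.9. The other 8 were below 1 CPM on average in every SK-MEL-147 group, the highest being FAP at 0.269 CPM with palbociclib. The part of these markers in the results below was not tested.

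Against untreated A549, 6 of the 9 genes were higher in untreated SK-MEL-147, 2 were lower and 1 was not called, where 66.7% of the 21761 genes tested were called, 33.3% higher and 33.4% lower. Higher were SOX10 (log2 difference 10.67), NGFR (9.51), ZEB2 (4.07 ± 0.24 SE), RAB38 (3.97 ± 0.26), AXL (1.86 ± 0.21) and ZEB1 (1.69 ± 0.13). The SOX10 difference rests on 20 counts in 1 A549 control library and 0 in the others, and without that library the fitted value was 16.29, which is no bound. MITF, the melanocyte master regulator, was lower in the melanoma line than in the lung line, at 12.0 ± 0.92 CPM (SD, n = 4) against 19.6 ± 2.95 (SD, n = 3), a log2 difference of -0.84 ± 0.19 (adjusted p = 0.000396). TFAP2A was also lower, at 15.5 ± 1.88 against 40.4 ± 4.71 CPM (log2 difference -1.52 ± 0.20, adjusted p = 4.34e-07). SOX9 did not pass, at 29.8 ± 6.71 against 32.6 ± 5.70 CPM (adjusted p = 0.477). The CPM were scaled within each line, whereas the log2 differences come from a fit of both lines together. The ratio of the printed means therefore does not give the log2 difference exactly.

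Each drug was followed by calls among the members in SK-MEL-147. With doxorubicin NGFR, ZEB2 and TFAP2A rose and MITF, AXL, RAB38 and ZEB1 fell. With palbociclib NGFR, ZEB2 and TFAP2A rose and MITF, AXL, RAB38, ZEB1 and SOX10 fell. INK128 lowered MITF and SOX9 and raised SOX10 and TFAP2A, and the other 5 members did not pass. With doxorubicin 3 members rose and 4 fell, where 59.8% of the 18516 genes tested were called, 30.9% higher and 28.9% lower. With palbociclib 3 rose and 5 fell, where 58.4% were called, 29.7% higher and 28.7% lower. With INK128 2 rose and 2 fell, where 58.7% were called, 29.8% higher and 28.9% lower. With most genes of the table called in each comparison, nothing particular to the set is read from these counts. Since all 3 comparisons share the control samples, the values are given side by side.

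**Figure D2:**
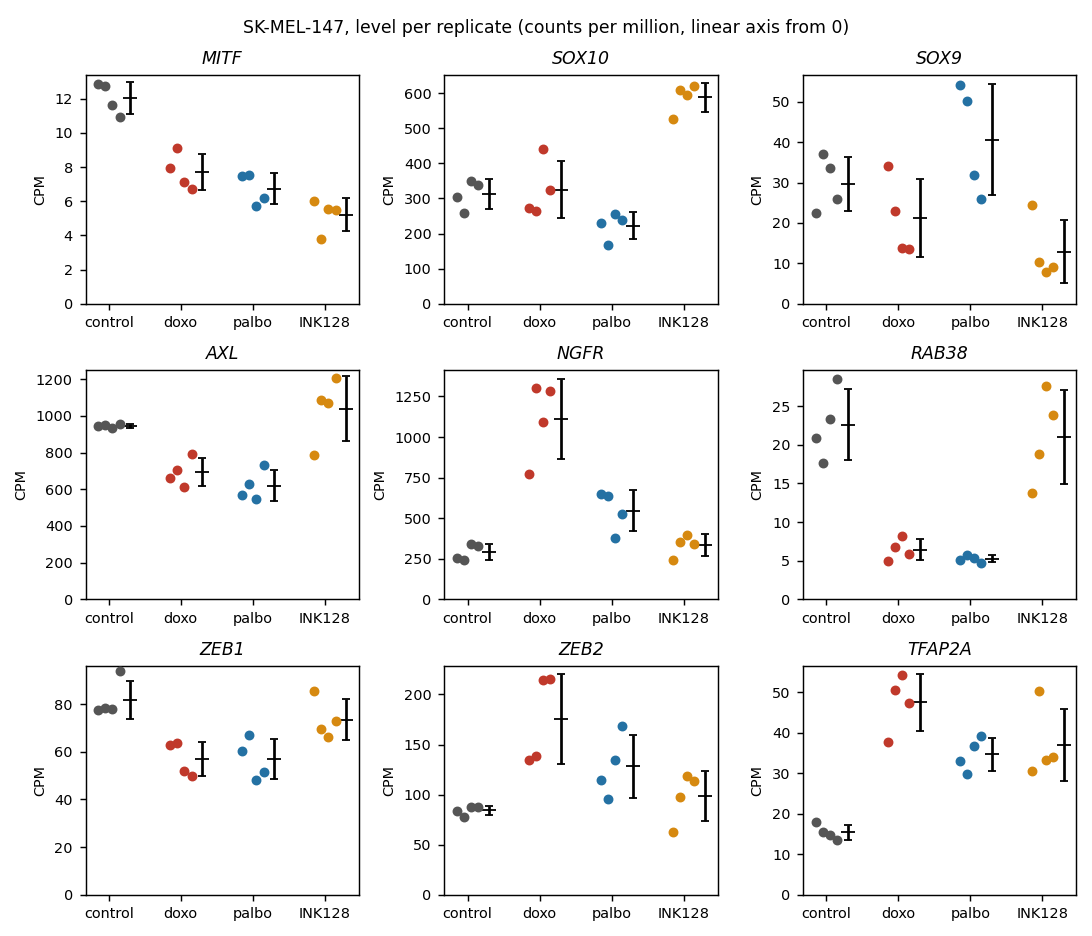
CPM (vertical axis, linear from 0) of each gene in the 4 SK-MEL-147 groups (horizontal axis). Points are the 4 replicates, and the bar beside them is the mean with the SD. The 4 INK128 replicates of SOX10 lie between 527 and 620 CPM, above all others, and those of RAB38 after doxorubicin and palbociclib lie between 4.63 and 8.13 CPM, below all others.

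MITF, the transcription factor of the melanocyte lineage, had 12.8, 12.8, 11.6 and 10.9 CPM in the control replicates. It had 7.94, 9.12, 7.13 and 6.69 CPM with doxorubicin, 7.46, 7.54, 5.74 and 6.20 with palbociclib and 5.99, 3.81, 5.58 and 5.51 with INK128. No treated replicate reached the lowest control. The log2 fold changes were -0.64 ± 0.15 SE (adjusted p = 0.00183), -0.84 ± 0.16 (adjusted p = 0.000207) and -1.21 ± 0.16 (adjusted p = 8.92e-06). INK128 was also below doxorubicin, by -0.56 ± 0.16 (adjusted p = 0.00725), and its difference from palbociclib did not pass (adjusted p = 0.0619).

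SOX10, the neural crest and melanocyte factor that activates MITF, rose with INK128 and fell with palbociclib. It had 303, 258, 351 and 338 CPM in the control and 273, 264, 440 and 323 with doxorubicin, 2 ranges that overlap (log2 fold change 0.06 ± 0.16, adjusted p = 0.783). With palbociclib it had 230, 166, 255 and 238 CPM, all below the lowest control of 258, for a log2 fold change of -0.49 ± 0.16 (adjusted p = 0.0166). With INK128 it had 527, 609, 596 and 620 CPM, all above the highest control of 351. The rise was 0.91 ± 0.17 on the log2 scale (adjusted p = 0.000201), so that SOX10 and MITF moved in opposite directions. The fall with palbociclib was no longer called without control replicate 3 (adjusted p = 0.0512) or without palbociclib replicate 2 (adjusted p = 0.0756). Without a block for replicate, palbociclib did not differ from doxorubicin by the test (-0.55, adjusted p = 0.157). Every palbociclib replicate lay below every doxorubicin replicate, and with replicate as a block SOX10 was called in this comparison, as given below. POLR2F, a gene on the other strand, shares 89 exonic bases with SOX10, and whether counting used strand is not given in the sources used here.

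SOX9, a factor of the related neural crest and chondrocyte programmes, fell with INK128. The control replicates had 22.5, 37.1, 33.5 and 25.9 CPM and those with INK128 24.4, 10.3, 7.91 and 9.10, a log2 fold change of -1.20 ± 0.36 (adjusted p = 0.00971). INK128 replicate 1, at 24.4 CPM, lay within the control range, far from the other 3, and without it the log2 fold change was -1.71 (adjusted p = 0.000411). Among the INK128 replicates, replicate 1 was also the highest for MITF and ZEB1 and the lowest for SOX10, AXL, NGFR, RAB38, ZEB2 and TFAP2A. Leaving out any 1 replicate kept AXL, NGFR, RAB38, ZEB1 and ZEB2 uncalled with INK128 against control (lowest adjusted p 0.0933, for AXL). After doxorubicin (34.1, 23.0, 13.9 and 13.6 CPM) and palbociclib (54.2, 50.2, 32.0 and 26.0 CPM) the ranges overlapped the control and SOX9 did not pass (adjusted p = 0.245 and 0.295). Under INK128 it was below palbociclib, by -1.65 ± 0.37 on the log2 scale (adjusted p = 0.00137).

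RAB38, a small GTPase that carries cargo to melanosomes and related organelles, was several-fold lower after both senescence drugs. The control replicates had 20.9, 17.7, 23.4 and 28.5 CPM. Doxorubicin left 4.97, 6.82, 8.13 and 5.82 CPM and palbociclib 5.13, 5.71, 5.39 and 4.63, below every control replicate. The log2 fold changes were -1.81 ± 0.21 (adjusted p = 1.32e-06) and -2.12 ± 0.21 (adjusted p = 3.62e-07). With INK128 it had 13.7, 18.9, 27.6 and 23.9 CPM, which overlap the control (-0.10 ± 0.20, adjusted p = 0.67). INK128 exceeded doxorubicin by 1.71 ± 0.21 (adjusted p = 7.81e-06) and palbociclib by 2.01 ± 0.21 (adjusted p = 1.85e-06).

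AXL, a receptor tyrosine kinase, and NGFR, the low-affinity neurotrophin receptor, mark melanoma states with low MITF. AXL had 944, 948, 932 and 953 CPM in the control. It had 662, 707, 612 and 792 CPM with doxorubicin (log2 fold change -0.45 ± 0.13, adjusted p = 0.0088) and 570, 628, 549.1 and 733 with palbociclib (-0.61 ± 0.13, adjusted p = 0.000965). Every replicate of these 2 drugs was below every control. INK128 gave 789, 1086, 1070 and 1209 CPM, around the control (adjusted p = 0.394). NGFR went the other way: its control values were 257, 239, 340 and 331 CPM. Doxorubicin gave 772, 1303, 1090 and 1281 CPM (log2 fold change 1.93 ± 0.21, adjusted p = 7.68e-07) and palbociclib 648, 636, 376 and 522 (0.90 ± 0.21, adjusted p = 0.00127). All 8 of these replicates lay above the highest control. INK128 gave 240, 354, 398 and 343 CPM, overlapping the control (adjusted p = 0.431), and was 1.74 ± 0.21 below doxorubicin on the log2 scale (adjusted p = 7.4e-06). In AXL and NGFR the 2 receptors thus moved in opposite directions with both senescence drugs.

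The ZEB pair also parted. ZEB2, linked to the differentiated melanocyte state, rose from 83.5, 77.6, 87.7 and 88.1 CPM to 135, 138, 214 and 216 with doxorubicin (log2 fold change 1.06 ± 0.21, adjusted p = 0.000344). Palbociclib gave 114, 95.8, 135 and 169 CPM (0.61 ± 0.21, adjusted p = 0.0189), a call lost without palbociclib replicate 4 (adjusted p = 0.0771). INK128 gave 63.1, 97.6, 118 and 114 CPM and did not pass (adjusted p = 0.375). ZEB1, the partner linked to a mesenchymal state, had 77.3, 78.3, 78.1 and 93.9 CPM in the control, 62.7, 63.7, 51.9 and 49.8 with doxorubicin, and 60.5, 67.0, 48.3 and 51.7 with palbociclib. These are falls of -0.52 ± 0.12 (adjusted p = 0.00164) and -0.53 ± 0.12 (adjusted p = 0.00161), with no overlap with the control. INK128 gave 85.5, 69.7, 66.2 and 72.8 CPM (adjusted p = 0.29). ZEB1-AS1, an RNA on the other strand of ZEB1 with 12.7% as many counts, rose with all 3 drugs, from 4.23 CPM to 7.65, 7.40 and 12.9 CPM. It shares 366 exonic bases with ZEB1, so that without a known strand setting the ZEB1 values are less certain.

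TFAP2A, which binds neural crest and melanocyte enhancers, rose with every drug. The control replicates had 18.0, 15.5, 14.8 and 13.6 CPM. Doxorubicin gave 37.8, 50.7, 54.2 and 47.4 CPM (log2 fold change 1.62 ± 0.16, adjusted p = 2.66e-07), palbociclib 32.9, 29.8, 36.8 and 39.1 (1.16 ± 0.16, adjusted p = 1.02e-05), and INK128 30.5, 50.3, 33.3 and 34.0 (1.26 ± 0.16, adjusted p = 6.85e-06). Every treated replicate lay above every control. Antisense RNAs TFAP2A-AS1 and TFAP2A-AS2 share exonic bases with it and held 2.59% and 3.05% as many counts.

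**Figure D3:**
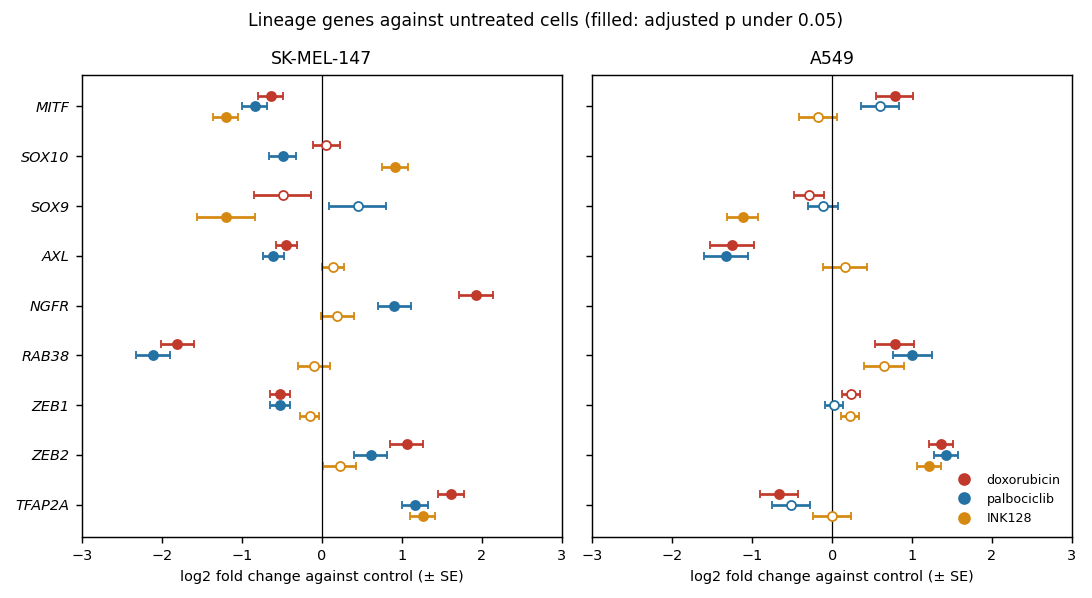
Log2 fold change against untreated cells (horizontal axis, ± SE) of each gene (vertical axis) with 3 drugs, in SK-MEL-147 on the left and A549 on the right, where SOX10 and NGFR are not drawn. Filled points passed the adjusted p of 0.05. TFAP2A reached 1.62 in SK-MEL-147 and fell by 0.66 in A549 with doxorubicin.

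Between the 2 senescence drugs no member was called in SK-MEL-147, where 0.0594% of genes (11 of 18516) were. At an unadjusted p under 0.05, 5 members differed, and DESeq2 called 1 member. NGFR was nearest, 1.03 ± 0.21 lower on the log2 scale with palbociclib than with doxorubicin (adjusted p = 0.062). In this comparison the replicate numbers paired the samples, and with replicate as a block 2 members were called, NGFR (adjusted p = 0.0343) and SOX10 (adjusted p = 0.0437), with 341 genes in all. In INK128 against doxorubicin 48.7% of genes were called. In INK128 against palbociclib 52.6% were called. Of the members, AXL was higher under INK128 than with doxorubicin (0.58 ± 0.13, adjusted p = 0.00201) and palbociclib (0.74 ± 0.13, adjusted p = 0.00025), and ZEB2 lower than with doxorubicin (-0.84 ± 0.21, adjusted p = 0.00339). NGFR was lower than with palbociclib (-0.71 ± 0.21, adjusted p = 0.00853). SOX10 was higher under INK128 than with doxorubicin (0.86 ± 0.17, adjusted p = 0.000496) and palbociclib (1.40 ± 0.17). ZEB1 was higher than with doxorubicin (0.37 ± 0.12, adjusted p = 0.0218), a call lost without doxorubicin replicate 3 or 4 or INK128 replicate 1 (adjusted p 0.0644 to 0.081). It was also higher than with palbociclib (0.37 ± 0.12, adjusted p = 0.0191), a call lost without INK128 replicate 1 or palbociclib replicate 3 or 4 (adjusted p 0.057 to 0.0723). The SOX9 difference from doxorubicin did not pass (adjusted p = 0.117), but was called with the block (adjusted p = 0.0284) and without INK128 replicate 1 (adjusted p = 0.00658).

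Genes of the surrounding programmes moved with the members to different degrees. Of the 16 neural crest and Schwann-lineage genes tested of 21 listed, 10 rose and 1 fell with doxorubicin, 8 rose and 1 fell with palbociclib and 12 rose with INK128, none falling. The median log2 fold changes were 1.34, 0.92 and 1.44, beside 0.02, 0.00 and 0.03 over all genes tested, of which 30.9%, 29.7% and 29.8% rose and 28.9%, 28.7% and 28.9% fell. EDNRB, FOXD3, S100B, SOX2 and SOX6 were under 1 CPM in the control and could pass the filter through treated groups. Among the other 11 genes 6, 6 and 8 rose and 1, 1 and 0 fell, with medians of 1.17, 0.51 and 0.82, a split made after the values were seen. The list itself was chosen with earlier results of these data known, so these counts and medians are no test of the list. L1CAM, a neural adhesion molecule, rose with each drug, from 99.4 ± 24.1 CPM to 713 ± 129 with doxorubicin and 650.4 ± 80.4 with palbociclib (log2 fold changes 2.84 and 2.71). With INK128 SOX2 (4.51 ± 0.92), SOX6 (3.32 ± 0.57) and CDH19, a Schwann-cell cadherin (2.67 ± 0.41), rose most, SOX2 and SOX6 from under 1 CPM. Their INK128 replicates varied widely, at 11.1 ± 8.05, 2.19 ± 1.28 and 73.8 ± 31.4 CPM (SD, n = 4). LEF1, a Wnt-pathway factor, fell with doxorubicin (-0.48) and palbociclib (-0.80). By mean level in A549, L1CAM also rose, from 9.76 CPM to 25.1 with doxorubicin and 23.2 with palbociclib, and was 9.58 with INK128. SOX2 and CDH19 did not rise there with INK128, at 6.31 and 1.80 CPM against 6.56 and 2.00 in the control.

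Undifferentiated-state genes had calls in both directions with each drug. Of 18 tested of 20, 8 rose and 6 fell with doxorubicin, 9 rose and 7 fell with palbociclib, and 3 rose and 6 fell with INK128. Over all genes 30.9% rose and 28.9% fell, 29.7% and 28.7%, and 29.8% and 28.9%, so that nothing particular to the list is read from these counts. PDGFRB was under 1 CPM in the control. FN1 (fibronectin) rose from 42.3 CPM to 334 with doxorubicin and 573 with palbociclib. The transcription factor TEAD4 fell from 49.1 CPM to 11.3, 12.6 and 19.1 with doxorubicin, palbociclib and INK128. NRG1, an ERBB ligand, fell from 64.8 to 15.6 CPM with INK128, where CCN1 fell by 1.24 on the log2 scale too. Of 7 epithelial-mesenchymal genes tested of 12, SNAI2, a repressor also of neural crest cells, rose with each drug (1.86, 1.86 and 0.78). It was the only one called with doxorubicin. CDH2 also rose with palbociclib (0.65). With INK128 TWIST2 (0.93) and TWIST1 (0.67) also rose, and TCF4 fell (-0.36). The remaining tested genes of this list were not called. By mean level in A549, FN1 also rose, from 313 CPM to 3614 with doxorubicin and 2919 with palbociclib. TEAD4 fell there from 27.1 CPM to 7.13, 8.85 and 13.45 with doxorubicin, palbociclib and INK128. SNAI2 rose there from 0.221 CPM to 3.01, 2.51 and 2.16. NRG1 and CCN1 did not fall there with INK128, at 177 and 90.3 CPM against 166 and 58.0 in the control.

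**Figure D4:**
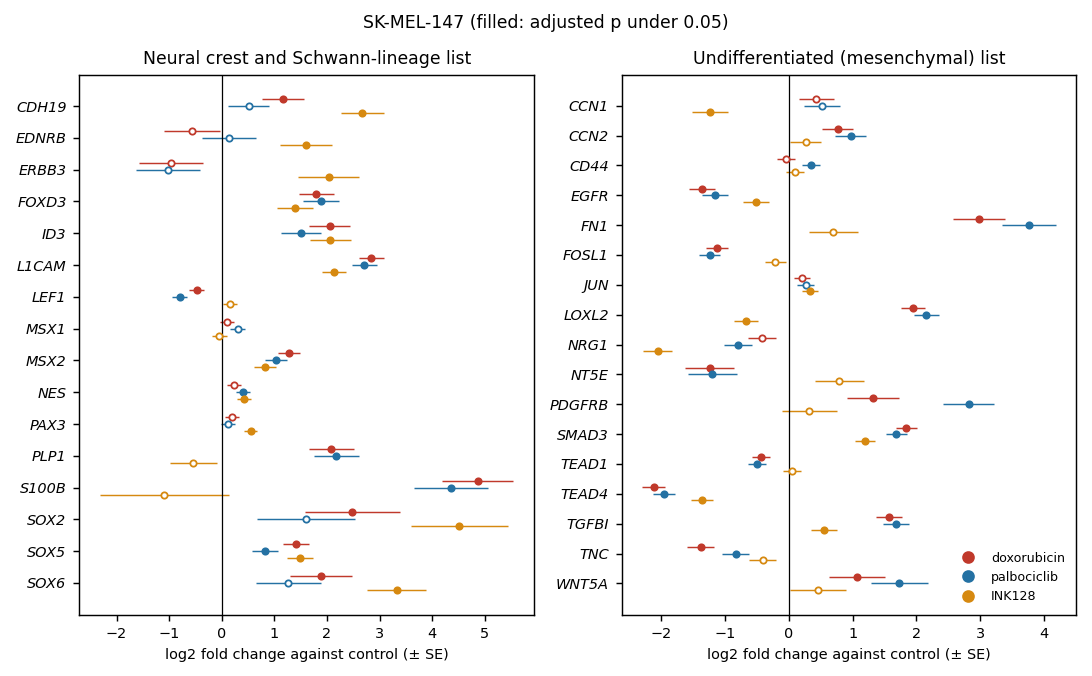
Log2 fold change against untreated SK-MEL-147 cells (horizontal axis, ± SE) of the tested genes of the neural crest list and of the undifferentiated list, 1 of which is not drawn (vertical axis). Filled points passed the adjusted p of 0.05. With INK128 12 of 16 neural crest genes rose, 8 of them among the 11 with at least 1 CPM in the control. Of 18 undifferentiated genes 3 rose and 6 fell. Over all genes tested 29.8% rose and 28.9% fell.

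Relatives of single members were read in the same way. The MITF-family factor TFEB rose with each drug (log2 fold changes 2.79, 2.59 and 2.55), but from 0.277 CPM, whereas TFE3, the abundant relative at 104 CPM, rose with doxorubicin (0.42). For AXL, the ligand GAS6 rose with each drug (0.40, 1.03 and 0.66) while the related receptor TYRO3 fell (-1.27, -0.81 and -1.28). For NGFR, NTRK3, a neurotrophin receptor of the tyrosine kinase class, fell with each (-1.86, -1.28 and -1.61) and was at 4.52 CPM in the control. BEX3, of the same list and at 134 CPM in the control, rose with doxorubicin (0.61) and palbociclib (0.34) and fell with INK128 (-0.50). Around RAB38, ANKRD27, which binds it and its relative RAB32, fell with each drug (-1.12, -0.81 and -1.09), while RAB32 rose with doxorubicin (0.91) and palbociclib (0.57) and fell with INK128 (-0.69). Of 14 genes of that machinery tested, 4 rose and 2 fell, 4 rose and 3 fell, and 2 rose and 5 fell, in the same order of drugs, beside 30.9%, 29.7% and 29.8% of all genes higher and 28.9%, 28.7% and 28.9% lower. TFAP2C, a relative of TFAP2A, fell with doxorubicin (-0.69) and palbociclib (-0.89) and rose with INK128 (1.31). Among 6 pigment genes tested, GPNMB rose with doxorubicin and palbociclib from 0.362 to 6.18 and 10.9 CPM, with SDs of 7.57 and 8.77. MC1R rose with doxorubicin (0.67), from 1.265 to 2.01 CPM. RAB27A, at 34.5 CPM in the control, fell with INK128 (-0.35). BCL2A1, a survival gene that MITF activates, had 32 counts in the control group and 0 with doxorubicin, at least 9.99-fold lower when the floor is set at 3 counts in the treated group. It had 2 counts with palbociclib, and with INK128, where MITF fell, it rose to 127 counts (from 0.255 to 1.02 CPM, log2 fold change 1.98 ± 0.55, adjusted p = 0.00734). With 32 counts or fewer in each other group, BCL2A1 could pass the filter through the INK128 group, so no weight is put on its calls.

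In A549, AXL, SOX9 and ZEB2 had calls in the directions they had in SK-MEL-147, whereas MITF, RAB38 and TFAP2A had calls in the other direction with doxorubicin. ZEB2 rose with all 3 drugs, from 4.55 ± 0.73 CPM to 11.7 ± 0.52, 12.2 ± 0.37 and 10.5 ± 1.61 (SD, n = 3). AXL fell with doxorubicin (log2 fold change -1.26 ± 0.28, adjusted p = 0.00367) and palbociclib (-1.33 ± 0.28, adjusted p = 0.00264), and SOX9 with INK128 (-1.12 ± 0.19, adjusted p = 0.000965). RAB38 rose with palbociclib (1.00 ± 0.25, adjusted p = 0.00642) and doxorubicin (0.78 ± 0.25, adjusted p = 0.0233). With doxorubicin MITF rose (0.78 ± 0.24, adjusted p = 0.0193) and TFAP2A fell (-0.66 ± 0.24, adjusted p = 0.0429). The MITF call ended on dropping control 3, or treated replicate 2 or 3 (adjusted p from 0.0643 to 0.0741), and on dropping library 2-2 (adjusted p = 0.0989). That of TFAP2A ended on dropping any 1 control, or treated replicate 2 or 3 (adjusted p from 0.0661 to 0.153). That of RAB38 with doxorubicin ended on dropping control 1 or 3, or treated replicate 1 (adjusted p from 0.0614 to 0.0811). With doxorubicin 3 members rose and 2 fell, beside 43.3% of 19550 genes called (22.4% higher, 20.9% lower). With palbociclib 2 rose and 1 fell beside 43.3% (22.2% higher, 21.1% lower), and with INK128 1 rose and 1 fell beside 40.2% (20.5% higher, 19.7% lower). Without replicate 1 of every group, the called falls of AXL and SOX9 and the rises of ZEB2 were called again, and RAB38 was no longer called with doxorubicin (0.55, adjusted p = 0.074). MITF (0.83) and TFAP2A (-0.67) then also passed with palbociclib (adjusted p = 0.00228 and 0.000197), and ZEB1 rose with doxorubicin (0.38, adjusted p = 0.014) and INK128 (0.33, adjusted p = 0.0277). In A549 replicate 1 had 22.3 CPM of MITF with doxorubicin, against 39.8 and 38.8 in the others. Numbers paired the samples in A549. With the block MITF (adjusted p = 0.0212) and TFAP2A (adjusted p = 0.0016) were also called with palbociclib, NGFR with doxorubicin and SOX10 with all 3 drugs, the last 2 with counts mainly in replicate 1.

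The response of the lines was compared as an interaction, SK-MEL-147 minus A549. With doxorubicin 4 members differed and 19.8% of 21761 genes did, with palbociclib 5 and 19.2%, and with INK128 3 and 11.9%. MITF went down in the melanoma line and up in the lung line with doxorubicin (-1.54 ± 0.27, adjusted p = 0.000216). RAB38 did the same with doxorubicin (-2.70 ± 0.33, adjusted p = 3.31e-06) and with palbociclib (-3.24 ± 0.34, adjusted p = 4.74e-07). TFAP2A went the reverse way, up in SK-MEL-147 and down in A549 with doxorubicin (2.16 ± 0.29, adjusted p = 1.08e-05). Doses of palbociclib and INK128 differed between the lines, so their line differences set 2 doses side by side. AXL did not differ by this test with doxorubicin (0.70) but did with the replicate block (0.72, adjusted p = 0.0214).

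**Figure D5:**
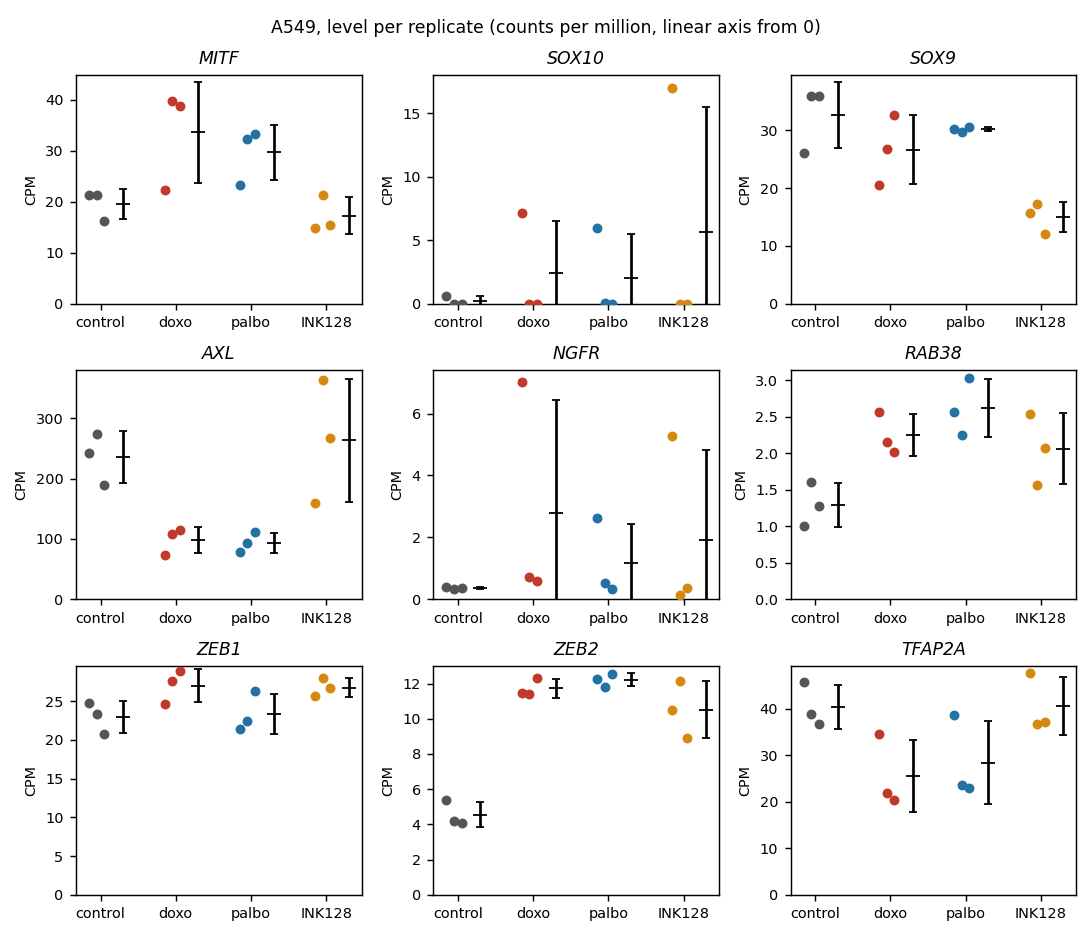
CPM (vertical axis, linear from 0) of each gene in the 4 A549 groups (horizontal axis). Points are the 3 replicates, and the bar beside them is the mean with the SD. All 9 treated replicates of ZEB2 lie above the highest control, 5.39 CPM, whereas SOX10 lies in replicate 1.

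The genes whose pattern over the 16 SK-MEL-147 libraries was most like each member's were sought among 9329 candidates, the protein-coding genes that averaged 10 CPM or more. Likeness was the root mean square difference of log2(CPM + 0.5), each gene centred on its own mean. For MITF the nearest were FASTKD2 (0.164), CYRIB (0.179) and GTPBP4 (0.185), beside MITF's own spread of 0.449 around its mean. RAB38 was nearest to GALNT13 (0.218), TLE3 (0.246) and NFKB1 (0.268), beside a spread of 0.944. AXL was nearest to TEAD1 (0.101), SP1 (0.120) and ZNF507 (0.134), beside 0.343. TFAP2A was nearest to TP53INP2 (0.127), ZBTB4 (0.135) and VGLL4 (0.164), beside 0.624. NGFR had LIMCH1 (0.279), CAT (0.317) and SNX21 (0.346), beside 0.802, and SOX10 had CLCF1 (0.168), CCNI (0.204) and ARPIN (0.209), beside 0.553. ZEB1 was nearest to YTHDC2 (0.0933), TUBGCP2 (0.112) and RBM26 (0.113), beside 0.275. ZEB2 was nearest to KIF13A (0.159), INAFM2 (0.165) and SEPTIN9 (0.176), beside 0.487. SOX9 had PDIA5 (0.250), PCBD1 (0.366) and OR51B5 (0.384), beside 0.799. These are likenesses of level only.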

How the data were processed

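The deposited table holds whole-number counts of reads per gene for 32 libraries. The submitters' processing notes name STAR 2.7.10a, the build GRCh38.p13 and featureCounts as what the authors used for alignment and counting. The annotation release and the treatment of strand and multiply matched reads are not given in the sources used here. Per the labels' protocols the libraries were stranded and polyadenylated. Symbols were found for 60370 of 60728 gene IDs, and positions and transcript lengths came from GENCODE 29.

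The counts entered edgeR 4.0.16 under R 4.3.3 (TMM factors, filterByExpr by group, quasi-likelihood F test). Each line was fitted on its own with all 4 groups and no block, and line differences in 1 fit of 8 groups. Adjusted p-values are Benjamini-Hochberg over all genes tested, at 0.05. The fits were also run on simulated counts in which far fewer genes changed than were called here, and nothing is drawn from that run. The members and lists were chosen with earlier results of these data known. From each list, up to 3 called genes per direction and SK-MEL-147 comparison with control were eligible to be named, by size of change, and the members by rule. The 11 genes of the A549 check fall outside this rule.

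Replicate numbers were taken to pair samples where every same-number correlation of deviations exceeded 0.1. This held in A549 (0.118 to 0.414 over 3 comparisons) and in SK-MEL-147 for INK128 against control (0.188 to 0.265) and doxorubicin (0.305 to 0.539) and for palbociclib against doxorubicin (0.527 to 0.657). Alternatives were RLE scaling, library size alone, DESeq2 1.42.0, no filter, a stricter filter (minimum count 30), fewer groups, the block, A549 libraries 2 and 2-2 treated otherwise, and leaving out each replicate. Leaving out A549 replicate 1 and computing TMM within each line were chosen after seeing the data. A gene of the undifferentiated list is counted but not reported by itself here. Figures used matplotlib 3.10.9.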

Additional observations from a re-analysis of the deposited data

Results flagged for a closer look

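Within the SK-MEL-147 groups of 4, 2 of the 36 sets of values held a replicate far from the other 3, where chance gives about 1 in 20. SOX9 under INK128 had 24.4 CPM in replicate 1, against 7.91 to 10.3 CPM in the others. That INK128 replicate was the highest or the lowest of its group for every member. ZEB1 in the control had 93.9 CPM in replicate 4, against 77.3 to 78.3 CPM.

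The responses of the 2 lines differed by a test of the difference itself for 5 genes (edgeR, SK-MEL-147 minus A549, log2). For MITF the difference was -1.54 with doxorubicin, -1.57 with palbociclib and -1.04 with INK128. For TFAP2A it was 2.16, 1.55 and 1.24 in the same order. RAB38 differed by -2.70 with doxorubicin and -3.24 with palbociclib, and ZEB1 by -0.87 and -0.68. ZEB2 differed by -0.94 with palbociclib and -1.01 with INK128, where A549 rose by 1.43 and 1.21 and SK-MEL-147 by 0.61, with INK128 giving 0.22 there, not called. With TMM factors computed within each line, 11 of these 12 differences were called again, and ZEB2 with palbociclib was not (-0.81, adjusted p = 0.0563). Leaving out 1 replicate ended 4 of these calls: MITF with INK128 (adjusted p 0.051 and 0.0567 without A549 control replicate 3 or INK128 replicate 2), ZEB1 with palbociclib (0.0542 to 0.109 without any 1 SK-MEL-147 control; -0.43 without control replicate 4), and ZEB2 with palbociclib (0.066 to 0.108) and with INK128 (0.0517 to 0.0764), each without one of several libraries. With A549 replicate 1 dropped throughout, all 12 were called, from -3.12 for RAB38 with palbociclib to 2.31 for TFAP2A with doxorubicin.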

How the results depend on the processing

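In SK-MEL-147 against control, 133 of 135 values over all alternatives kept direction and side of the threshold with doxorubicin, 132 of 135 with palbociclib and 133 of 135 with INK128. The replicate block made SOX9 pass with doxorubicin (-0.64, adjusted p = 0.0388), where numbers did not pair the samples; it also changed ZEB2 in INK128 minus palbociclib (adjusted p = 0.0243). In palbociclib minus doxorubicin, 11 genes were called, and 459 with DESeq2, 303 without a filter, 1 with only the groups of the comparison, 341 with the replicate block, 20 with RLE, 24 with the stricter filter and 1 to 141 leaving out a replicate, the highest without palbociclib replicate 4 (0 to 1 members, and 1 member with DESeq2 or no filter, 2 with the block). For A549 the members called with doxorubicin were 5, 2 without library 2-2 and 2 to 4 leaving out a replicate. With palbociclib they were 3, 5 with libraries 2 and 2-2 apart or without replicate 1, 6 with the block and 3 to 5 leaving out a replicate. In the line differences, 5 members were called with palbociclib, 3 without library 2-2 or by library size alone and 3 to 5 leaving out a replicate. With INK128 3 were called, 1 without library 2-2 and 1 to 3 leaving out a replicate. The block gave 4745 genes for INK128 (2597 without) and 6359 for palbociclib (4172 without).

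Some uncalled values near 0 changed sign. AXL in the INK128 line difference (-0.04) was 0.071 without library 2-2, 0.031 by library size alone, 0.013 with the block and -0.29 to 0.26 leaving out a replicate, and SOX9 there (-0.10) was 0.064 without library 2, 0.022 without A549 replicate 1 and -0.60 to 0.073. TFAP2A with INK128 in A549 (0.002) was -0.020 with libraries apart, -0.030 without library 2, -0.018 with DESeq2 and with RLE, -0.014 by library size, -0.057 without a filter, -0.016 without replicate 1, -0.0049 with the block and -0.13 to 0.085 leaving out a replicate. ZEB1 with palbociclib in A549 (0.03) was -0.030 without library 2-2, -0.050 by library size, -0.018 without a filter and -0.057 to 0.10. ZEB1 in palbociclib minus doxorubicin (-0.004) was 0.0032 with DESeq2, 0.0036 with RLE and -0.10 to 0.070. Leaving out a replicate gave -0.14 to 0.42 for AXL with INK128 in A549, -0.26 to 0.053 for RAB38 with INK128 and -0.12 to 0.17 for SOX10 with doxorubicin in SK-MEL-147, and -0.093 to 0.18 for TFAP2A in INK128 minus palbociclib. The cause was not tested.

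SOX10 and NGFR in A549 turned on replicate 1. Leaving out a replicate gave -5.95 to 9.61 with doxorubicin, -2.93 to 9.37 with palbociclib and -5.99 to 10.88 with INK128 for SOX10, and -0.64 to 2.94 for NGFR with INK128, which was -0.59 without replicate 1 throughout. Line differences ran from -9.33 to 5.69, -9.67 to 2.21 and -9.73 to 6.52 for SOX10 and from -1.56 to 0.92, -1.24 to 0.48 and -2.79 to 0.87 for NGFR (doxorubicin, palbociclib, INK128). Without A549 replicate 1 they were 0.051 (doxorubicin) and 0.92 (INK128) for SOX10, and 0.80, 0.36 and 0.76 for NGFR. The scale of the line differences depends on the reference of TMM: computed within each line, it moved the median of all genes by 0.129 for doxorubicin, 0.132 for palbociclib and 0.137 for untreated cells (log2).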

Other observations

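The pigment list was also read in A549, the line without melanocyte origin. Of 8 genes tested in A549, 5 rose with doxorubicin, 4 with palbociclib and 5 with INK128, none falling, beside 22.4%, 22.2% and 20.5% of all genes. In the A549 control 10 of the 16 pigment genes were below 1 CPM on average. Some of the 8 tested could thus pass the filter through treated groups, and nothing particular to the list is read from these counts. GPNMB, a lysosomal and melanosomal glycoprotein, rose by 1.69 ± 0.33, 2.51 ± 0.33 and 1.07 ± 0.33 (log2, SE). GPR143, a receptor of melanosomes, rose by 2.56 ± 0.42, 3.04 ± 0.41 and 1.69 ± 0.43. RAB27A, which moves melanosomes and other organelles, rose with doxorubicin (1.39 ± 0.21) and palbociclib (1.22 ± 0.21). These genes were named after their values were seen, and the difference between the lines in the number of genes that rose was not tested.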
